A study of Mus musculus with 16 samples.

Results

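The genes described here encode the proteins of the cytosolic ribosome. They were taken by symbol from the count tables (Rpl or Rps followed by a number and at most 1 further letter, plus Rplp0, Rplp1, Rplp2 and Rpsa, without the Rps6k kinases), which gave 81 of 23337 genes. By name they divide into 43 large subunit genes, 31 small subunit genes, 3 genes of the P stalk, and 4 paralogs of restricted or stress-linked expression (Rpl3l, Rpl10l, Rpl39l and Rps27l). Poly(A) RNA of mouse first molar germs, the embryonic primordia of the first cheek tooth, was sequenced in 16 libraries, 8 labelled upper and 8 labelled lower. The germs came from 8 wild-type embryos of the outbred CD1 strain labelled male, numbered 1 to 8, with 1 embryo at each 0.5-day step from ED14.5 to ED18.0 (embryonic day). By the labels, every library pooled the 2 germs (left and right) of 1 jaw, and both jaws of a stage came from 1 embryo. If the labels hold, stage and embryo are the same factor, and a p-value here measures scatter of single embryos about a trend.

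The ribosome is built from a small subunit, which reads the mRNA, and a large subunit, which joins amino acids, with the P stalk recruiting the elongation factors. Cells make the ribosomal proteins in nearly equal numbers, and growing tissues spend a large part of their transcription on them. Their mRNAs begin with a terminal oligopyrimidine tract, a run of C and T at the start of the transcript through which growth signals such as mTOR control translation. During the sampled days the molar germ passes from the cap to the bell stage, when the crown is shaped and the cusps are laid down.

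Several facts about the libraries bear on every comparison. Gene counts totalled 33146758 to 38584429 in the libraries labelled upper and 35918529 to 44565205 in those labelled lower. All libraries labelled upper were read on 1 flow cell and all labelled lower on another, by the identifiers in the names of the deposited tables, so tooth label and flow cell cannot be told apart. Within each label the first 4 stages shared 1 lane and the last 4 another. Jaw genes went against the labels. Pou3f3, a transcription factor gene of the upper jaw mesenchyme, ranged from 4.45 to 10.1 CPM (counts scaled to a common total, the unit of level used below) in individuals 1, 3, 5 and 7 and from 60.1 to 131.5 CPM in individuals 2, 4, 6 and 8, under both labels. Hence "labelled upper" and "labelled lower" are used throughout, and the individuals of even and odd number were also compared as alternating groups. Day, individual number and the pairing of jaws rest on the same labels and carry the same doubt. Xist, the RNA of the inactive X chromosome of females, was at 431.8 and 542.3 CPM in labelled lower individuals 1 and 2 and at 1499 to 1928 CPM in the other 14, while all 16 libraries carry the male label.

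The 81 genes together took 4.96% to 6.71% of all gene counts. Of these counts 51.7% fell on the large subunit genes, 41.7% on the small subunit genes, 6.53% on the P stalk genes and 0.102% on the 4 paralogs. Rplp0, the stalk's scaffold protein, had the highest mean level, at 2267 CPM. Above 100 CPM lay 73 of the 81 genes, from Rpl38 at 201.6 CPM upward, an 11.2-fold range. The 10 genes with the most counts made up 26.3% of the total, so no small group carried the sum.

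A longer transcript yields more reads, so levels were set against each other per kilobase of transcript (CPM per kb). On that scale the 73 genes centred on a median of 1028 CPM per kb. Highest were the stalk protein gene Rplp1 with 1986, Rpl41, whose product is the smallest ribosomal protein, with 1890, Rps12 of the small subunit with 1874, Rplp0 with 1669 and Rps2, a small subunit protein near the mRNA entry, with 1600 CPM per kb. At the low end of the 73 stood Rps20 with 182, Rpl37 with 372 and Rpl35 with 454 CPM per kb. The Rps20 value rests on an annotated transcript of 3706 bases, and a shorter transcript in the germs would raise it.

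Of the 8 remaining genes, 4 encode core proteins of the ribosome. Rpl30 averaged 5.67, Rpl34 4.45, Rps27 1.83 and Rpl26 0.786 CPM, whereas no other core gene was under 200 CPM. Such genes have processed copies elsewhere in the genome, and reads that match several places could be lost or split in the authors' counting. Alignments that were not unique made up 6.07% to 6.67% of all lines in the count tables. Of the 100-base windows of the transcript, 98.4% in Rps27, 53.5% in Rpl30, 36.8% in Rpl26 and 31.0% in Rpl34 also occurred unchanged in the annotated transcript of another gene. The median over the 73 well counted genes was 45.3%, and 2 of them were above 90%, so this measure did not separate the 4 genes from the rest. Their levels are uncertain, and copies outside the annotated transcripts were not examined.

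**Figure D1:**
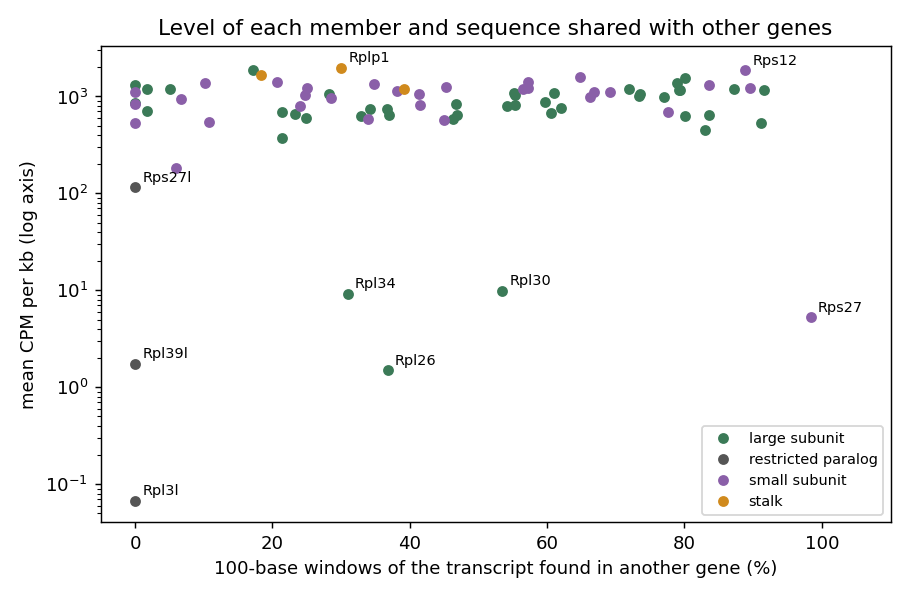
Mean level per kilobase of transcript (log axis) against the percentage of 100-base windows of the transcript that occur unchanged in another gene's annotated transcript, 1 point per gene, coloured by subunit. Rpl26, Rpl30, Rpl34 and Rps27 lie far under the band of well counted genes, which spans the whole horizontal axis, and Rpl10l, with 0 counts, is not drawn.

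The 4 paralogs were at low to absent levels. Rps27l, a p53-responsive copy of Rps27, averaged 57.6 CPM and Rpl39l, known from the testis, 0.959 CPM. Rpl3l, the striated muscle form of Rpl3, reached 20 counts summed over labelled upper (12.2 to 30.9, exact 95% Poisson interval) and 36 over labelled lower (25.2 to 49.8). Rpl10l, a testis copy of Rpl10, had 0 of 599847422 counts, which allows at most 0.0050 CPM over the 16 libraries at a limit of 3 counts. These intervals and limits cover counting error only. Markers of skeletal muscle, the tissue in which Rpl3l is known, summed to 2.70 to 53.3 CPM under the upper label and 5.32 to 23.4 CPM under the lower.

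The start of the genes was examined because the members moved together in the comparisons below. Promoters of 61 of the 81 genes were found in the RefSeq table (GRCm38.p6, the build named mm10), as 300 bases from 250 before to 50 after the listed start. The windows below run from 60 bases before to 30 after that start, 5′ to 3′ on the gene's strand, with runs of 6 or more C or T in capitals. Rpl13a (chr7:45128716-45128805, minus strand), Rps10 (chr17:27635215-27635304, minus strand) and Rpsa (chr9:120127706-120127795, plus strand) are core genes the comparisons turn on. Rps27 (chr3:90213619-90213708, minus strand) and its paralog Rps27l (chr9:66946026-66946115, plus strand) are shown as a pair, and Rpl39l (chr16:10170168-10170257, plus strand) as the paralog that varied most. The level of Rps27 is uncertain, as stated above, so the levels of the pair were not compared.
Rpl13a: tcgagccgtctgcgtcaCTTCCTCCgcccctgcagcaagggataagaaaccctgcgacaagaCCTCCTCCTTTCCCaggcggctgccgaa
Rps10: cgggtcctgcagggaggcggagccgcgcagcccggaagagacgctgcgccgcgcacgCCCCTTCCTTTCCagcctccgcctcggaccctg
Rpsa: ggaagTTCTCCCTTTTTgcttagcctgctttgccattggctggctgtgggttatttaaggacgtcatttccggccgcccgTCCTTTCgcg
Rps27: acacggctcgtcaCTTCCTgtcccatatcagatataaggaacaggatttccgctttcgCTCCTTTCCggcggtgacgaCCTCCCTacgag
Rps27l: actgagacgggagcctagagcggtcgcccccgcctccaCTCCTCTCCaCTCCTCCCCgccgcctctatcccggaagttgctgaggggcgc
Rpl39l: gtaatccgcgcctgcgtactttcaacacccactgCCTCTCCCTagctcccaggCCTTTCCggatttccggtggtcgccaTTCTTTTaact

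A run of 8 or more C or T in the last 70 bases of the window, on the gene's strand, occurred in 45 of 61 members (73.8%) and in 25.4% of 27025 promoters in the table. The letters CTTTCC, which can lie inside such a run, occurred there in 16 of 61 (26.2%) against 3.22% of all promoters. TTCTTT, also part of some runs, was in 4.92% of members and 2.58% of all. Over the full 300 bases and both strands, CCGGAAGT was in 19.7% of members and 4% of all promoters, AAGATGGC in 6.56% and 2.88%, GGGCGG in 59.0% and 35.9%, and TATAAA in 8.20% and 14.2%. In the printed windows a run covers the listed start in Rps10 and Rps27 and begins just after it in Rpl13a. For named core genes not printed, the longest run in the last 70 bases was 14 in Rpl26, 14 in Rpl39 and 13 in Rpl36a. It was 10 in Rpl41, 7 in Rplp0 and 4 in Rpl22. The promoters of the table were not limited to genes expressed in the germs, whereas most members were well counted. These counts describe letters only.

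The libraries labelled upper held the larger share of ribosomal protein mRNA at every labelled stage. From individual 1 to 8 the share of gene counts was 6.44%, 5.83%, 6.71%, 6.60%, 6.18%, 6.09%, 5.84% and 5.70% in the libraries labelled upper. In those labelled lower it was 5.50%, 5.45%, 5.34%, 5.30%, 5.72%, 5.30%, 5.12% and 4.96%. The upper label was higher for 8 of 8 individual numbers. Individual 5 of the lower label (5.72%) lay above 1 library labelled upper, that of individual 8 (5.70%). The mean difference was 0.838 percentage points, the same to within 0.05 points without the member with the most counts, without the paralogs, or without Rn45s, the precursor ribosomal RNA gene, in the total. Both subunits took part. The ratio of small to large subunit counts ranged from 0.806 to 0.819 under the upper label and from 0.795 to 0.808 under the lower.

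**Figure D2:**
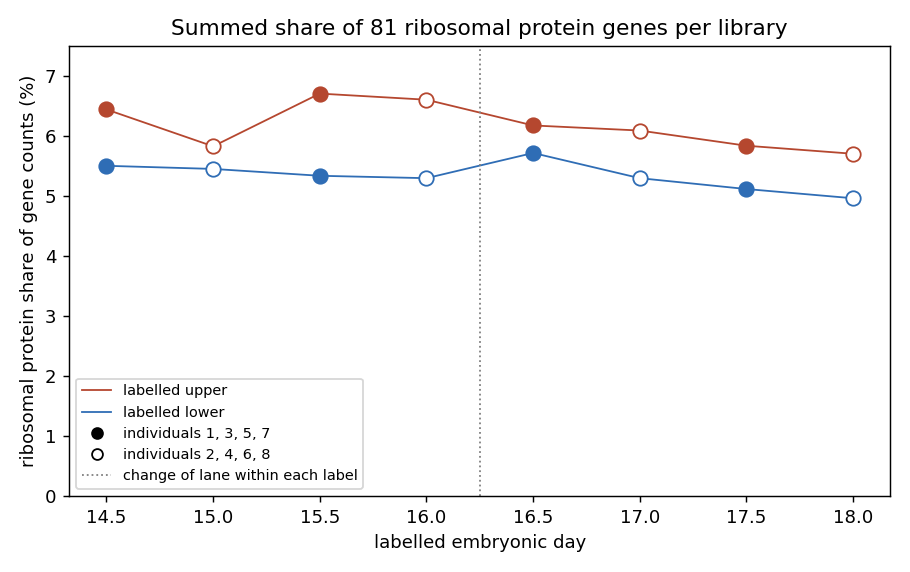
Share of all gene counts on the 81 genes (%) against labelled embryonic day, 1 point per library, red for labelled upper and blue for labelled lower, filled for individuals 1, 3, 5 and 7 and open for 2, 4, 6 and 8. The upper label is above the lower at each of the 8 stages, and the dotted line marks the change of sequencing lane within each label.

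Gene by gene, 70 of the 79 members with enough counts to test were higher in the labelled upper libraries (edgeR quasi-likelihood F test, Benjamini-Hochberg adjusted p under 0.05, with a smooth curve over stage). Of all 16287 genes tested, 18.1% were higher in labelled upper by the same rule, and of those at 100 CPM or more, 22.9%. Another 3 members were higher in labelled lower, where the background was also 18.1%. The median over the members was 0.21 on the log2 scale, a 1.16-fold difference, while the median over all genes was 0.01. Members called higher in labelled upper lay between 0.11 and 0.33, up to 1.25-fold. The difference was therefore small, but it recurred from gene to gene. The genes were read in the same libraries and are not replicates of the label difference. In 60 of 79 members labelled upper exceeded labelled lower for 8 of 8 individual numbers (11.7% of all genes). That pairing by number carries the doubt stated above. In 29 members every library labelled upper lay above every library labelled lower (2.89% of all genes). The reverse separation held for 0 members and 3.52% of genes. In bulk tissue, more cells with a high ribosome content and more ribosomal protein mRNA in each cell cannot be told apart. Nor can tooth label and flow cell.

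**Figure D3:**
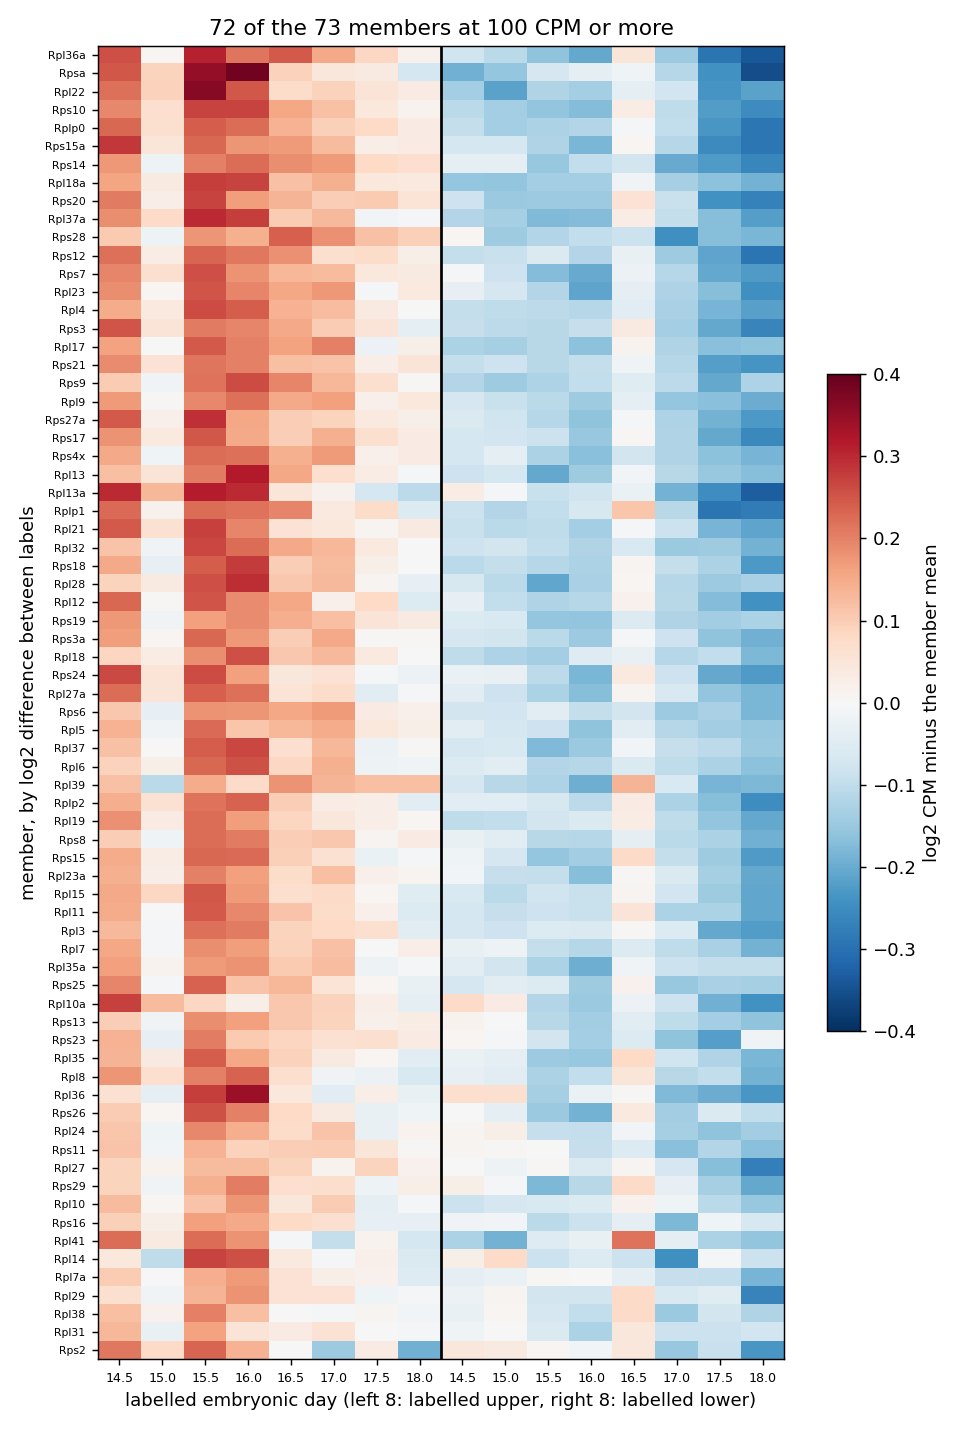
Log2 CPM minus the gene's own mean over the 16 libraries for 72 of the 73 members at 100 CPM or more, ordered by the difference between labels, with labelled upper on the left and labelled lower on the right of the black line. Red is above and blue below the gene's mean. The left side is mainly red, most deeply at ED15.5 and ED16.0, and the right side mainly blue, most deeply at ED18.0.

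The upper label was higher for 38 of the 43 large subunit genes and the lower label for 1, Rpl26. Among those higher in labelled upper the largest difference was that of Rpl36a (chrX:134585654-134588062, plus strand), a protein at the exit site for transfer RNA. Its level had a median of 352.0 CPM (311.7 to 383.5) in labelled upper and 279.02 CPM (245.3 to 320.8) in labelled lower. The 2 ranges overlapped only through labelled upper individuals 2 and 8 and labelled lower individual 5. The log2 difference was 0.33 ± 0.04 (SE, adjusted p 8.0e-05, edgeR). Rpl22 (chr4:152325742-152334071, plus strand), an RNA-binding protein whose loss is known to impair T cell development, had medians of 429.1 CPM (411.7 to 518.5) and 366.5 CPM (342.0 to 392.1), without overlap. It differed by 0.30 ± 0.04 (adjusted p 0.000126, edgeR). The 4 large subunit genes that did not pass were Rpl14, at 0.12 ± 0.06, Rpl41, at 0.13 ± 0.06, and the poorly counted Rpl30 and Rpl34.

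The upper label was higher for 29 of the 31 small subunit genes and the lower label for 0, where 0 also had an unadjusted p under 0.05, and over all members DESeq2 counted 3 higher in labelled lower, as many as edgeR. Rpsa (chr9:120127689-120132369, plus strand), the laminin receptor precursor that also serves as a structural small subunit protein, had medians of 1918 CPM (1715 to 2355) and 1641 CPM (1410.6 to 1779). Those ranges overlapped, with labelled upper individual 8 under 3 of the lower libraries, and the difference was 0.30 ± 0.05 (adjusted p 0.000166, edgeR). Rps10 (chr17:27630418-27636669, minus strand) on the head of the subunit had medians of 663.2 CPM (610.4 to 728.7) and 545.7 CPM (507.6 to 616.1). It overlapped at 1 library of each label and differed by 0.29 ± 0.04 (adjusted p 6.2e-05, edgeR). Rps2, at 0.09 ± 0.04, and Rps27 did not pass.

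All 3 stalk genes were higher in labelled upper. Rplp0 (chr5:115559467-115563727, plus strand) had a median of 2445 CPM (2304 to 2667) in labelled upper and 2070.1 CPM (1844.5 to 2239) in labelled lower. The groups did not overlap, and the log2 difference was 0.28 ± 0.03 (adjusted p 2.2e-05, edgeR). Its partners on the stalk, Rplp1 and Rplp2, differed by 0.24 ± 0.04 and 0.20 ± 0.03.

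The genes higher in labelled lower were outside the abundant core set. Rpl39l (chr16:10170226-10174911, plus strand) ranged from 0.156 to 0.917 CPM (median 0.406) in labelled upper and from 0.471 to 2.57 CPM (median 1.30) in labelled lower, on 127 and 457 summed counts. It was higher in labelled lower for 8 of 8 individual numbers, with a log2 difference of -1.74 ± 0.36 (adjusted p 0.00178, edgeR). Rps27l (chr9:66946086-66949516, plus strand) had medians of 54.7 CPM (48.9 to 62.5) and 60.8 CPM (54.5 to 66.0), ranges that overlapped widely, and differed by -0.15 ± 0.05 (adjusted p 0.0203, edgeR). Without individual 5 its adjusted p was 0.0661. Rpl26 (chr11:68901583-68906989, plus strand), on 189 and 287 summed counts, differed by -0.44 ± 0.14 (adjusted p 0.0253, edgeR), and its adjusted p was 0.0558 to 0.0819 when individual 3, 4, 5 or 8 was left out, and 0.0711 without labelled lower individuals 1 and 2. Rpl36al, Rpl7l1 and Rpl22l1, paralogs outside the selection, differed by 0.05 ± 0.05, 0.03 ± 0.03 and 0.03 ± 0.04 and did not pass.

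**Figure D4:**
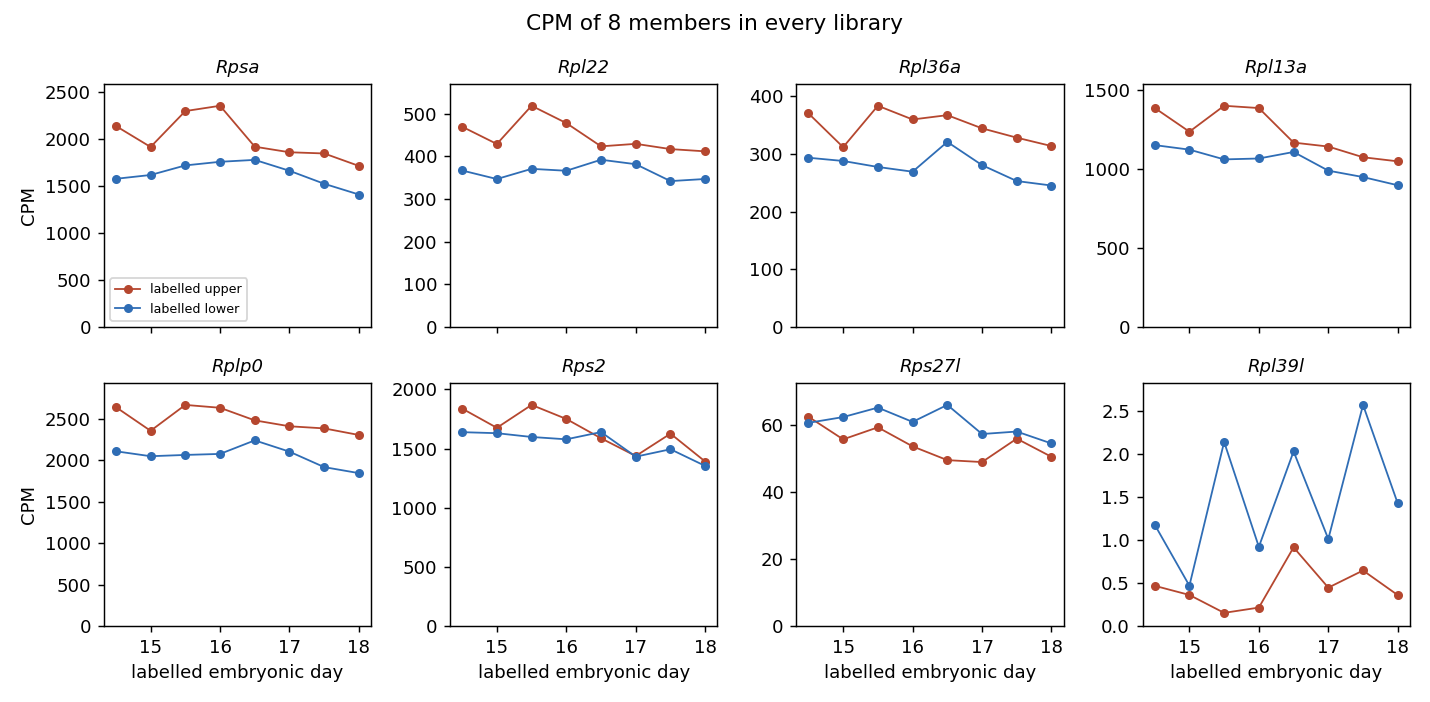
CPM of 8 members against labelled embryonic day in every library, red for labelled upper and blue for labelled lower, each panel with its own axis from 0. Rpl22 and Rplp0 are separated by label at all stages, Rps2 is not, Rps27l and Rpl39l are higher in labelled lower at most stages, and Rpl13a declines under both labels.

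Other genes of protein synthesis were compared with the members. Of 23 translation factors and other genes whose mRNAs begin with an oligopyrimidine tract, 18 were higher in labelled upper and 0 the other way (0 also at an unadjusted p under 0.05), with a median of 0.16. They included Eif3k at 0.34, Eef1b2 at 0.29, Eif3h at 0.26 and Gnb2l1, the ribosome-bound scaffold RACK1, at 0.27. Ribosome biogenesis genes moved less, with 4 of 38 higher, 0 lower and a median of 0.05. Their share of higher genes was under the 18.1% of all genes tested. The 4 were Polr1c and Polr1b, subunits of RNA polymerase I, with 0.18 and 0.19, and the nucleolar factors Nop16 and Nop14 with 0.16 and 0.09. Of 15 genes of growth control, 3 were higher: Myc, a transcription factor known to raise ribosome production, with 0.46 ± 0.06 (adjusted p 3.9e-05, edgeR), the mTOR complex member Mlst8 with 0.11, and the S6 kinase gene Rps6kb2 with 0.13. The list's median was -0.02, and its share of higher genes was near the 18.1% of all genes tested.

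Mitochondrial genes did not share the pattern of the cytosolic members. Among 76 mitochondrial ribosomal protein genes 7 were higher and 2 lower in labelled upper, with a median of 0.03. Among 77 nuclear genes of oxidative phosphorylation 3 were higher and 11 lower, with a median of -0.05, led by Cox4i2, a lung and stress form of a cytochrome oxidase subunit, at -1.11. Of 12 proliferation genes, Top2a and Rrm2 were lower in labelled upper, at -0.19 and -0.25, and 0 were higher. Among all genes tested, 18.1% were higher and 18.1% lower in labelled upper, so no list of this paragraph held an excess of genes called lower. By sign alone, 63 of the 77 oxidative phosphorylation genes were lower in labelled upper and 14 higher. Over all 16287 genes 7935 were lower by sign.

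**Figure D5:**
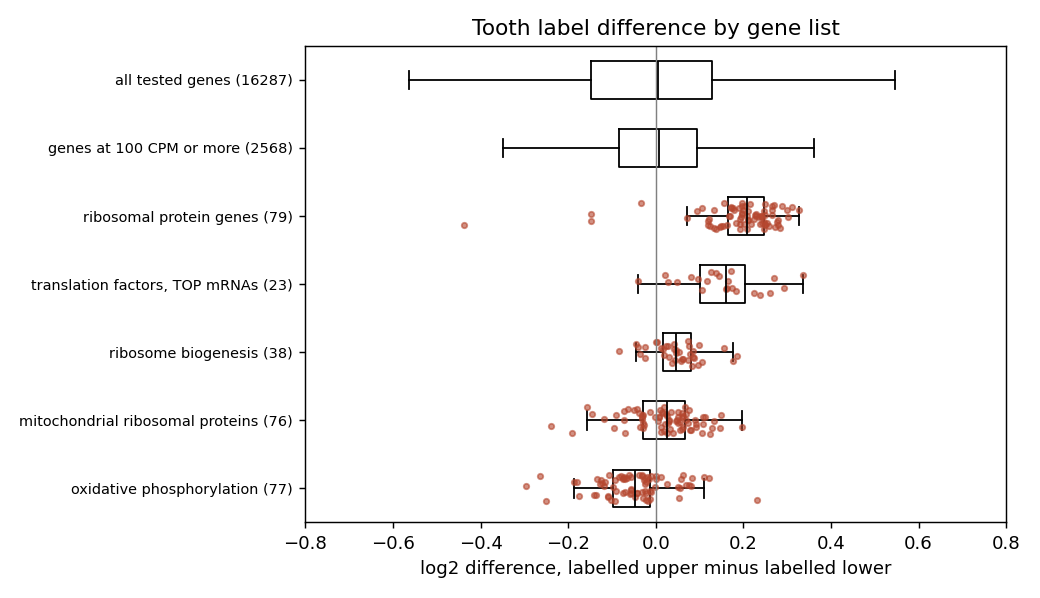
Log2 difference between labels (labelled upper minus labelled lower) for all tested genes, genes at 100 CPM or more and 5 gene lists, with the number of genes in brackets. Boxes give the median and quartiles and whiskers reach the last value within 1.5 box lengths; points are single genes, and 1 member (Rpl39l at -1.74) and 1 oxidative phosphorylation gene (Cox4i2 at -1.11) lie outside the axis. The box of the ribosomal protein genes and that of the translation factors lie to the right of 0, and the other boxes lie on or near it.

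Cell type markers also differed between the labels, where 18.1% of all genes tested were called in each direction. All 6 osteoclast markers were higher in labelled lower (summed level 195.8 to 320.4 CPM in labelled upper and 250.6 to 1006 CPM in labelled lower), as were 5 of 7 macrophage markers (50.3 to 83.3 and 60.6 to 125.4 CPM). Of 6 markers of cornifying oral epithelium 4 were higher in labelled lower (94.98 to 508.2 and 189.6 to 1545 CPM). Dental mesenchyme markers were higher in labelled upper in 4 of 8 cases and lower in 1 (3668 to 5843 and 3144 to 5275 CPM). Dental epithelium markers were higher in labelled upper in 1 of 8 and lower in 4 (2750.1 to 4751 and 3728 to 5619.8 CPM), so both tissues of the germ were present in all libraries. Erythroid markers were higher in labelled upper in 3 of 7 tested (34.7 to 146.3 and 15.04 to 34.3 CPM). No marker of these lists was at 0 in all 16 libraries. The share of counts on Rn45s was 0.206% to 0.390% under the upper label and 0.266% to 0.495% under the lower. The part of these differences in the ribosomal protein result was not tested.

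With stage the members drifted downward by little. The share was lower at 6 of 7 steps between neighbouring stages under each label, and from the first to the last stage it was 11.5% smaller in labelled upper and 9.83% smaller in labelled lower. Slopes per embryonic day were negative in 76 of 79 members in labelled upper, where 49.7% of all genes were negative, and in 72 of 79 in labelled lower, where it was 49.5%. Their medians were -0.04 and -0.03 on the log2 scale per day. Single individuals moved them, to -0.062 in labelled upper without individual 2 and to -0.013 in labelled lower without individual 8. The test called 1 member in each label as falling (2.41% and 1.49% of all genes fell), and DESeq2 called 6 and 7. Rising members numbered 0 by either tool (3.72% and 2.63% of all genes rose), and 0 had an unadjusted p under 0.05 in that direction. The steps were uneven across lanes. In the first lane of labelled upper the share was 6.44% at the first and 6.60% at the last stage, and in the second lane 6.18% and 5.70%. In labelled lower it was 5.50% and 5.30%, then 5.72% and 4.96%. With lane as a further term the median slopes were -0.01 and -0.08, and 0 members were called in either label.

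The member called in both labels was Rpl13a (chr7:45125558-45128761, minus strand), a large subunit protein that can also leave the ribosome to silence inflammatory mRNAs. From individual 1 to 8 its CPM was 1387, 1236, 1400.3, 1386, 1167, 1142, 1075 and 1049 in labelled upper. In labelled lower it was 1152, 1123, 1061, 1067, 1108, 989.7, 949.3 and 897.3. The last 3 libraries were the lowest under either label. Its level fell by 0.12 ± 0.03 per day on the log2 scale in labelled upper (adjusted p 0.0468, edgeR) and by 0.09 ± 0.02 in labelled lower (adjusted p 0.0381, edgeR). Both values lay close to the threshold. Under the upper label the adjusted p was 0.0652 to 0.176 when individual 1, 3, 5, 6, 7 or 8 was left out. Under the lower label it was 0.0572 to 0.180 without individual 1, 2, 4, 6, 7 or 8, and 0.222 without individuals 1 and 2 together. With lane added the slopes were -0.04 and -0.13 (adjusted p 0.850 and 0.171, edgeR).

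Rps2 had the next steepest slope in labelled upper, at -0.10 ± 0.03 (adjusted p 0.0732, edgeR), and in labelled lower it was Rpl36, at -0.08. Positive slopes in labelled upper were limited to Rpl39, at 0.03, Rps28, at 0.01, and the poorly counted Rpl39l, at 0.18. Slopes of the 2 labels were compared directly for each member. None was called (0 of 79 by edgeR, 0 by DESeq2 and 0 at an unadjusted p under 0.05, against 1.28% of all genes called), and the median difference was -0.015 per day. That median was -0.035 without individual 2, -0.0033 without individual 3, -0.0090 without individual 4 and -0.0072 without individual 7, and -0.0093 with library totals in place of TMM scaling.

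In the other lists, 2 of 23 translation factors and oligopyrimidine genes fell in each label, namely Npm1, a nucleolar chaperone, and the histone chaperone Nap1l1. Npm1 fell by 0.11 ± 0.02 per day in labelled upper and by 0.10 ± 0.02 in labelled lower. Ribosome biogenesis genes fell in 1 of 38 cases in labelled upper (Polr1c) and in 3 of 38 in labelled lower (Nop56, Ncl and Rrp9), with medians of -0.04 and -0.07. Mitochondrial ribosomal protein genes had negative slopes in 72 of 76 in labelled upper (median -0.05, 2 called falling) and in 69 of 76 in labelled lower (median -0.04, 2 called falling). Of the 77 oxidative phosphorylation genes 75 and 62 had negative slopes, with medians of -0.05 and -0.03, and 0 were called falling by edgeR in either label, with 17 and 9 at an unadjusted p under 0.05. Negative slopes were also common in these lists, and no difference between lists was tested. Among all genes, 2.41% were called falling in labelled upper and 1.49% in labelled lower. The proliferation genes Ccnb2, Birc5 and Cdk1 fell in labelled upper and Ccne1 in labelled lower, and all 12 genes of that list had negative slopes under both labels.

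Cell type markers moved with stage as well. In labelled upper all 8 skeletal muscle markers rose, with a median slope of 1.25 log2 units per day, from a summed 2.70 to 5.26 CPM in the first 4 stages to 12.6 to 53.3 CPM in the last 4. Of 6 markers of cornifying oral epithelium 4 rose there, with a median of 0.60 (94.98 to 226.8 CPM, then 270.4 to 508.2 CPM). Of 7 macrophage markers 1 rose and all had positive slopes, and 3 of 7 erythroid markers fell. In labelled lower 0 of the muscle markers and 0 of the cornifying markers were called, with medians of 0.09 and 0.54, and 1 erythroid marker fell. The part of these markers in the slopes of the ribosomal protein genes was not tested.

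The alternating groups, which split the jaw genes, split the ribosomal protein genes by little. The mean share was 6.06% ± 0.40 (SD, n = 4) in individuals 2, 4, 6 and 8 and 6.29% ± 0.37 (SD, n = 4) in individuals 1, 3, 5 and 7 of labelled upper. In labelled lower it was 5.25% ± 0.21 and 5.42% ± 0.25 (SD, n = 4 each). The groups overlapped under both labels, and each difference was smaller than the spread within its groups. The median over the members was -0.04 (even minus odd), with 75 of 79 negative, and over all genes it was -0.01. The members' median was -0.024 without individual 1 and -0.018 without individual 2. The even minus odd share was -0.234 percentage points in labelled upper, with -0.416 to -0.095 over the individuals left out in turn, and -0.166 points in labelled lower, with -0.267 to -0.067. By edgeR 0 members were higher in the even individuals (0 at an unadjusted p under 0.05 and 0 by DESeq2) and 1 was lower, against 7.04% and 5.5% of all genes. That member was Rpl39l.

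Rpl39l was at 0.470, 0.156, 0.917 and 0.648 CPM in the odd individuals of labelled upper and at 0.364, 0.217, 0.449 and 0.362 CPM in the even ones. In labelled lower it was at 1.18, 2.14, 2.03 and 2.57 CPM in the odd and at 0.471, 0.923, 1.01 and 1.43 CPM in the even individuals. The groups overlapped under both labels. The difference was -1.02 ± 0.27 (adjusted p 0.0249, edgeR), and the adjusted p was 0.0559 to 0.158 when individual 1, 4, 5, 6, 7 or 8 was left out. In labelled upper alone it was -0.74 (adjusted p 0.382, edgeR). A difference between labels in the alternation itself was called by edgeR for 0 of 79 members and 0 of 16287 genes. DESeq2 called 0 members and, among all genes, 82 in one direction and 27 in the other. At an unadjusted p under 0.05 there were 0 members.

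Some of the other lists held more calls in this comparison. Among all genes, 5.5% were lower and 7.04% higher in the even individuals. Oxidative phosphorylation genes were lower in the even individuals in 11 of 77 cases and higher in 0, with a median of -0.08, led by Cox7a2 at -0.15, Atp5b at -0.13, Uqcr11 at -0.16 and Atp5a1 at -0.10. Ribosome biogenesis genes were lower in 4 of 38 cases (Nop58, Ncl, Fbl and Noc2l), with a median of -0.09. Rpl36al, the autosomal copy of Rpl36a, was lower by -0.13 ± 0.04 (adjusted p 0.0426, edgeR). Of the translation factors and oligopyrimidine genes 0 of 23 were called by edgeR, with 3 at an unadjusted p under 0.05.

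Markers of the tissues of the germ also differed between the alternating groups. Of 8 dental epithelium markers 7 were lower in the even individuals and 0 higher, with a median of -0.33. Their summed level was 2750.1 to 3679.6 CPM in the even and 3536 to 4751 CPM in the odd individuals of labelled upper, and 3728 to 4551 and 4745 to 5619.8 CPM in labelled lower. Of 8 dental mesenchyme markers 6 were higher in the even individuals and 0 lower, with a median of 0.38. They summed to 4722 to 5843 CPM in the even and 3668 to 4444 CPM in the odd individuals of labelled upper, and to 4250.1 to 5275 and 3144 to 4151 CPM in labelled lower, without overlap under either label. Neuron and Schwann cell markers were higher in 3 of 6 cases (56.3 to 69.0 and 46.0 to 57.5 CPM in labelled upper, 84.2 to 111.9 and 71.0 to 103.3 CPM in labelled lower). The part of these markers in the differences of the gene lists above was not tested.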

How the data were processed

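The authors deposited 1 table of raw counts per gene symbol for each library. Alignment and counting on mm10 involved TopHat2 2.0.6, Bowtie2 2.0.2 and HTSeq 0.5.3p9, per the submitters' processing notes. Not given in the sources used here are the annotation, the strand setting and whether reads or pairs were counted. Per the labels' protocols the libraries were poly(A)-selected, read as pairs of 100 bp, and made with a kit that does not mark strand, so overlapping and antisense genes cannot be told apart. The 5 summary lines of each table were left out of totals and tests. They included reads on no feature, 11.8% to 14.1% of all lines.

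Genes at 0.269 CPM or more (10 counts at the median depth) in at least 2 libraries were tested, 16287 in all and 79 of 81 members. Rpl3l and Rpl10l failed. Counts were fitted in edgeR 4.0.16 (R 4.3.3) with TMM scaling, the quasi-likelihood F test and Benjamini-Hochberg adjustment over all tested genes at 0.05. A standard error was taken as log2 value over root F. The tooth label fit held a natural spline of day with 3 degrees of freedom. The alternating group was a further term. Slopes were linear within each label. Scripts were tested on simulated data.

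Alternatives were DESeq2 1.42.0, other scalings, no filter, leaving out each individual, lane, the alternating term and the individual as a block. Both jaws of an embryo share a number per the labels, and deviations of same-numbered libraries correlated at r = 0.12 to 0.28. Libraries of different number reached r = 0.25. Of the 8 libraries labelled upper, 4 correlated best with the lower library of their own number. The other 4 did so with another number of the same alternating group (3 with 1, 4 with 6, 7 with 3, 8 with 6). Xist also differed between the upper and the lower library of individual 1 (1664 against 431.8 CPM) and individual 2 (1739 against 542.3 CPM). For individuals 3 to 8 all Xist values lay between 1499 and 1928 CPM. The pairing was not settled by these values, and the Xist differences were not tested. Transcript lengths and gene positions came from GENCODE M21 (GRCm38). The length is that of the shortest coding transcript holding the principal coding sequence.

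The members, gene lists, motifs and alternating groups were chosen with earlier results of these data known. Named members were the 6 called with the largest log2 value per direction and comparison, those with a mean count under 50, the 5 highest and lowest per length, and the paralogs. A member that met this rule is not reported here. Up to 4 called genes stand for each list. Others (Rps2, Rpl36, Rpl14, Rpl41, Rplp1, Rplp2, Rpl39, Rps28, and 2 chaperone slopes) were chosen after their values were seen.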

Additional observations from a re-analysis of the deposited data

Results flagged for a closer look

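In 40 groups of samples examined for a value far from the others, 2 were found, and chance gives about 1 in 20 groups. Rpl26 in labelled upper was highest in individual 2, at 0.867 CPM, with the next library at 0.707 CPM. Rpl41 in labelled lower was highest in individual 5, at 955.5 CPM, with the next at 805.2 CPM. That library also had the highest share of the 81 genes in its label (5.72%).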

How the results depend on the processing

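The tooth label counts of members (70 higher and 3 lower in labelled upper) were 64 to 71 and 1 to 3 with each individual left out in turn, and the lowest count of lower members was that without individual 5. With the individual as a block they were 70 and 3, and the block changed no other call. The counts of members falling with stage moved more. In labelled upper it was 6 by DESeq2, 0 without a filter on low counts, 2 with the alternating term, 0 with lane added, and 0 to 1 with each individual left out. In labelled lower it was 7 by DESeq2, 0 with lane added, 0 without individuals 1 and 2, and 0 to 3 with each individual left out, and 1 member was called rising with the alternating term. Members lower in the even individuals numbered 3 with lane blocks in place of label and spline, 0 in labelled upper alone, and 0 to 1 with each individual left out. The cause of these moves was not tested. No named member reversed, and 174 of 203 checks of named members kept their side of the threshold. The median tooth label difference stayed between 0.19 and 0.22 over the alternatives. The removal of the 20 most counted genes and Rn45s from the scaling, of Rn45s from the total, and of labelled lower individuals 1 and 2 were chosen after seeing the data. The planned total without mitochondrially encoded genes was not run, since these tables list none. Depth limits Rpl3l, Rpl10l, Rpl26 and Rpl39l, and stage and embryo cannot be told apart for any slope.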
